A study of Mus musculus with 217 samples.

Results

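The oocytes described here were single metaphase II oocytes of mice on a C57BL6/129 background. They were taken as every oocyte column of the mixed-background count table, leaving out its 18 granulosa pools and the separate C57BL6 oocytes, and made up all but 46 of the 217 samples of the series. They fell into 10 groups that cross genotype at the Tet2 locus, age and resveratrol, a plant polyphenol. At 2 months (young) there were 18 wild-type and 15 Tet2 knockout oocytes, without resveratrol. At 6 months there were 20 wild-type control, 14 wild-type resveratrol, 20 knockout control and 20 knockout resveratrol oocytes, and at 10 months 20, 14, 15 and 15 in the same order. Resveratrol was given in drinking water at 30 mg per L, dissolved in DMSO, starting at 2 months, and controls drank the solvent. All mice had been superovulated with gonadotrophins, and the oocytes were stripped of cumulus cells before each went into a Smart-seq2 library, a method that copies and amplifies whole polyadenylated transcripts. Which part of Tet2 the knockout removes was not given in the sources used here. For the young wild-type oocytes the genotype field reads knockout while the title says wild type, and the title was followed. The granulosa pools came from wild-type and knockout mice of 2 and 10 months, the latter with and without resveratrol. No pool came from 6 months. The 27 C57BL6 oocytes used for comparison were 11 controls at 6 months, and 6 controls and 10 resveratrol oocytes at 10 months. The Tet2 medians of the 5 wild-type groups, 1.79 to 3.28 CPM (read counts normalised to library size after TMM scaling, a correction for library composition), lay above those of the 5 knockout groups, 0.690 to 1.301 CPM, and the young wild-type median was 2.84 CPM. Single oocytes overlapped, with 0 to 5.97 CPM in wild type and 0 to 4.95 CPM in knockout, levels of few reads per library.

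A metaphase II oocyte has finished its growth, has stopped transcribing and waits for fertilization on a store of maternal messenger RNA laid down while it grew. That store is translated, shortened and destroyed on a schedule during meiotic maturation and after fertilization, so what is counted is what was stored and has not yet been degraded. Polyadenylated RNA is measured, and a stored transcript can gain or lose its tail without being made or destroyed.

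No label names the mouse behind an oocyte. Oocytes of a group were therefore treated as members of 1 group and not as replicates of a condition, and spread is described without a test over oocytes. Most columns of the table carry a number before a dot in their names, which divides each group into 2 to 4 sets, 26 in all. The meaning of that number (a mouse, a day or a plate) was not given in the sources used here. The sets held 1 to 12 oocytes, and 1 of the 6-month wild-type resveratrol oocytes has no such number. Libraries held 3386039 to 8775154 counts with a median of 4401090, and at the lowest depth 3 counts correspond to 0.886 CPM. Of the 1410 pairs of libraries within groups, the most alike differed with a chi-square of 7.07 per degree of freedom, so no pair agreed within sampling noise.

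The defining oocyte transcripts were present in every oocyte. Gdf9, a growth factor that the oocyte secretes to its surrounding cells, had reads in every oocyte at 462 to 17536 CPM with a median of 8217. Its partner Bmp15 ranged from 1543 to 8600 CPM with a median of 4350. Mos, the kinase that holds the egg in metaphase, had a median of 1111 CPM, Dppa3, a maternal factor that protects DNA methylation in the zygote, 1108 CPM, and Zp3, a structural protein of the egg coat, 198 CPM. In the granulosa pools, given as CPM of plain library totals, the medians of these genes were 1.37 CPM (Gdf9), 0 (Bmp15), 0.128 (Mos), 1.32 (Dppa3) and 0 (Zp3). The young knockout oocyte that was the fifth of set 1 held the lowest Gdf9, Bmp15, Mos and Zp3 of all oocytes and is described separately.

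The promoters of 4 genes that stand for 4 kinds of behaviour are given first, from RefSeq on GRCm38.p6, from 250 bases before to 50 bases after the annotated start. Capitals mark GGGCGG, the core of the GC box, and TATAAA, the TATA motif, each searched on both strands. Bmp15 stands for the abundant transcripts that define the oocyte, Sf3b1 for the genes most alike between oocytes, Gli3 for those most unlike, and Kcnk18 for genes that were on in some oocytes and off in others. The windows are chrX:6320675-6320974 (Bmp15, minus strand), chr1:55027429-55027728 (Sf3b1, minus strand), chr13:15463473-15463772 (Gli3, plus strand) and chr19:59219398-59219697 (Kcnk18, plus strand). In the annotation used for gene positions Gli3 starts at 15463235 and Kcnk18 at 59219214, so their windows lie inside the genes by that annotation. Which start the oocyte uses was not tested.
Bmp15: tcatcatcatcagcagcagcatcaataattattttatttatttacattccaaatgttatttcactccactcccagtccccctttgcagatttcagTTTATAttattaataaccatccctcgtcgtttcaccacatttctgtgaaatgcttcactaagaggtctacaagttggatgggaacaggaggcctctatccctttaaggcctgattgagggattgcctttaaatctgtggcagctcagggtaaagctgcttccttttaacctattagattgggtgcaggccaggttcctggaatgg
Sf3b1: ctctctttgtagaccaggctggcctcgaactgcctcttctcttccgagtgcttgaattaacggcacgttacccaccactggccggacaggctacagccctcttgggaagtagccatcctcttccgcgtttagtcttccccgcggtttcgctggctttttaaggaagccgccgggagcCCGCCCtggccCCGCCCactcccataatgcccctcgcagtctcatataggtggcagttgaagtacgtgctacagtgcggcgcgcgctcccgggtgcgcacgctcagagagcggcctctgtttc
Gli3: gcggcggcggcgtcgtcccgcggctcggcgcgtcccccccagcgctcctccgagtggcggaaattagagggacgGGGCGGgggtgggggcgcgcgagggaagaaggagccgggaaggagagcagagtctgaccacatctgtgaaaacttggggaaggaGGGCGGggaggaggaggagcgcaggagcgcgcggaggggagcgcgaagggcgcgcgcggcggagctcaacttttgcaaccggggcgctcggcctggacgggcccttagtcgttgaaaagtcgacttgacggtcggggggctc
Kcnk18: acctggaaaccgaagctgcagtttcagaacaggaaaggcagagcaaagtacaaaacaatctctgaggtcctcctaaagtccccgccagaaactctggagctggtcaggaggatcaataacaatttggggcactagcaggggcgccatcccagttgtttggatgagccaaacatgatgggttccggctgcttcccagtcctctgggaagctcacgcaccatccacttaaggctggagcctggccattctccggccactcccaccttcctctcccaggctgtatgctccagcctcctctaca
The Bmp15 window holds 1 TATAAA match and 2 CpG dinucleotides, the Sf3b1 window 2 GGGCGG matches and 24 CpG, the Gli3 window 2 GGGCGG matches and 39 CpG, and the Kcnk18 window neither motif and 6 CpG. GGGCGG is in 35.7% and TATAAA in 13.6% of all 32851 RefSeq promoters of this length. Among the 3713 matched promoters of genes measured here, GGGCGG was in 67.8% and TATAAA in 6.01%, with a median of 23 CpG. Genes whose spread lay above that of their level in every group had GGGCGG in 64.2% of 296 promoters and genes below it in 68.4% of 244, so these letters were about equally frequent at both ends. For the genes that were on in some oocytes and off in others, 20 promoters matched and 45% held GGGCGG, with a median of 12.5 CpG.

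The most abundant transcript was that of Zbed3, a partner of the maternal complex under the egg membrane, at a mean over group medians of 21739 CPM. Its group medians ran from 16157 (10-month wild-type resveratrol) to 27314 CPM (6-month wild-type resveratrol), and single oocytes from 12429 to 45058 CPM. Rn18s-rs5 came next with 16856 CPM, and RP23-81C12.3 and Yam1, at 13445 and 12408 CPM, are described with it further on. Among the other entries Spin1, a histone reader that associates with the meiotic spindle, followed Zbed3 with 13697 CPM, H1foo, the linker histone of the oocyte, with 8721 CPM, and Gdf9 with 8291 CPM. Tcl1, an Akt cofactor of the early embryo, held 6784 CPM, Bcl2l10, a Bcl2 family member of the oocyte, 6631 CPM, Rfpl4, a RING-finger protein of the germ line, 5022 CPM, and Ccnb1, the cyclin of the metaphase kinase, 4983 CPM. The list goes on with Rbbp7 (4842 CPM), a histone chaperone, Oas1d (4671 CPM), an oocyte member of the oligoadenylate synthetase family, Bmp15 (4429 CPM), Btg4 (4095 CPM), the adaptor of the deadenylase that clears maternal RNA, Slbp (3926 CPM), which binds histone messenger RNA, Hsp90aa1 (3893 CPM), a chaperone, Mphosph6 (3874 CPM), an exosome cofactor, and Bpgm (3826 CPM), an enzyme of red cell glycolysis. The clone-named RP23-266O23.1, at 3913 CPM, completes the messenger-like entries. Together the top 20 held 15.6% of scaled counts by their mean group medians, and 13 of them were among the top 20 in every group.

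The order changed once length was taken into account. Exon lengths came from the GENCODE vM21 annotation, in which 28390 of the 53619 symbols matched 1 gene. Per kilobase of exon Zbed3 remained first at 9744 CPM per kb, followed by H1foo (7262), Bcl2l10 (5435), Gdf9 (4082), Tcl1 (3677), Spin1 (3045) and Rfpl4 (2927). Short transcripts then entered, among them Oosp1 (2660 CPM per kb) and Oosp3 (1954), secreted proteins of the oocyte, Tcl1b1 (2232), Obox2 (1934), an oocyte homeobox gene, and Cks2 (1686), a subunit of the cyclin-dependent kinase. In all, 10 genes were among the top 20 by both measures.

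Counts were concentrated in few genes, and how much so varied between oocytes. The 10 highest genes of an oocyte held 7.96% to 19.02% of its counts, with a median of 11.4%. The 100 highest held 27.8% to 40.6% and the 1000 highest 64.8% to 72.6%. After every library was thinned to 3386039 counts, 14928 to 18380 genes had at least 1 read, with a median of 16704. The median was lowest in 10-month wild-type controls (15996) and highest in 6-month knockout controls (17720), and the ranges of these groups, 15561 to 17099 and 16466 to 18380, overlapped.

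Among the abundant entries, 3 varied more than all the others and did so together. Rn18s-rs5, named after ribosomal RNA, and RP23-81C12.3 and Yam1, which moved with it, had median coefficients of variation (CV, the SD over the mean within a group) of 0.317, 0.338 and 0.344, while the other 17 of the top 20 ran from 0.111 (Bpgm) to 0.239 (Gdf9). Rn18s-rs5 ranged from 4685 to 46382 CPM over the oocytes. Around the group means it followed RP23-81C12.3 with a Pearson correlation of 0.995 and Yam1 with 0.993 over all oocytes, which share library and amplification within each point. These 3 entries took 1.196% to 12.5% of scaled counts in an oocyte, with a median of 4.1%. They were abundant in the granulosa pools too, at medians of 24169, 19997 and 18758 CPM, whereas Bmp15, Oas1d, Tcl1 and Rfpl4 had a pool median of 0.

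**Figure D1:**
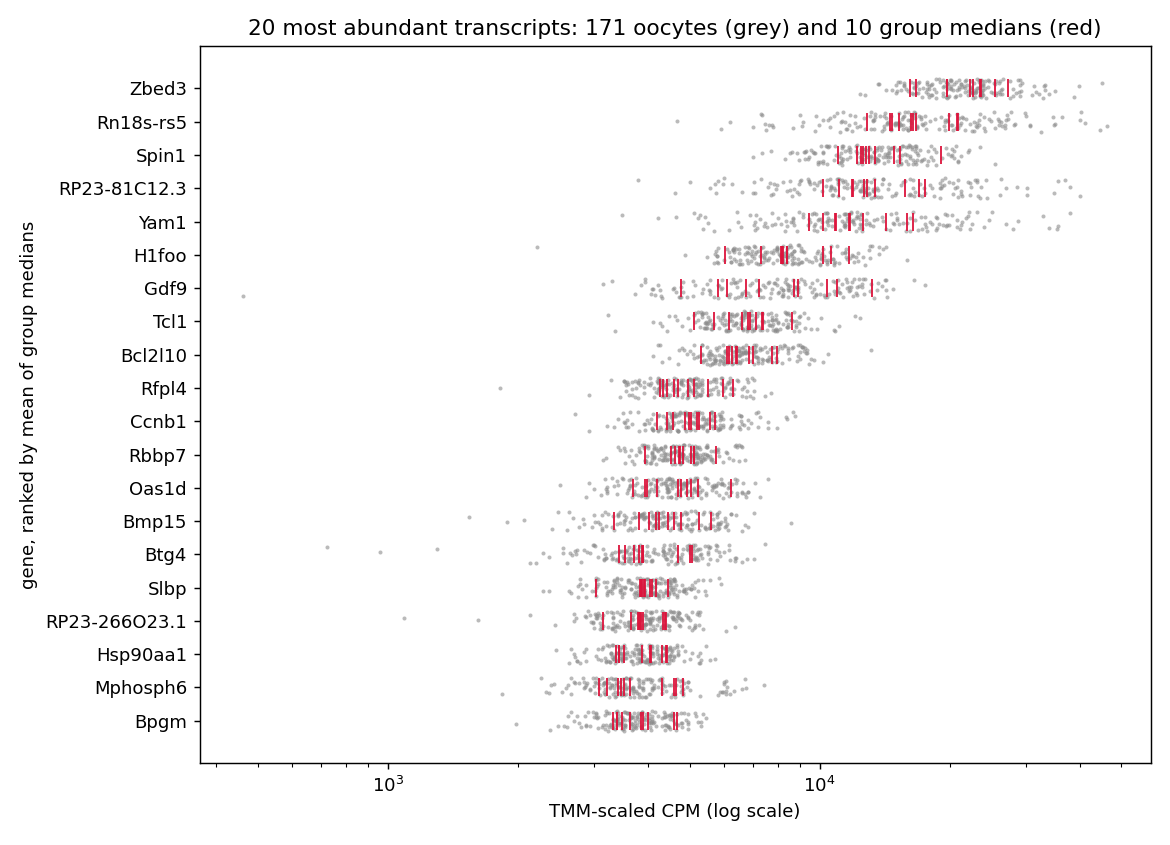
The 20 most abundant transcripts, ranked by the mean of group medians, with TMM-scaled CPM on a logarithmic axis. Grey points are the oocytes and red ticks the 10 group medians. Rn18s-rs5, RP23-81C12.3 and Yam1 have the highest CVs of the 20 (0.317, 0.338 and 0.344), while the cloud of Bpgm, with the lowest CV (0.111), is among the narrowest. Gdf9 reaches from 462 to 17536 CPM over single oocytes, its lowest point being the young knockout oocyte that stood apart.

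Spread was measured for the 5228 genes with a mean level of at least 20 CPM. The median gene had a CV of 0.226 (median over groups), and 90% of genes lay between 0.143 and 0.400, the 5th and 95th percentiles. Counting alone would give a median CV of 0.0598 at these depths, 3.79 times less, and in 5222 of 5228 genes the CV exceeded its counting value in all 10 groups. The CV fell with level, from a median of 0.258 among the 2146 genes at 20 to 50 CPM to 0.174 among the 119 genes at 1000 CPM or more, where the counting value was 0.0108. Amplification and library making add spread between oocytes, and no technical replicate is among the files, so that part cannot be told apart from biological spread.

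To compare genes at different levels, the CV was divided by the running median CV of the genes nearest in level (100 on each side), and the log2 of that ratio is called relative spread. In 449 genes it was above 0 in 10 of 10 groups (8.59% of those measured), and in 328 it was below 0 in 10 of 10 (6.27%). Without the young knockout oocyte that stood apart the counts were 462 and 361, of which 442 and 313 were the same genes. The C57BL6 oocytes, which played no part in choosing these genes, gave a similar order. Of the 420 variable genes measured there, 363 (86.4%) had a median relative spread above 0, against 49 of 307 stable genes (15.96%) and 46.2% of all 4787 genes measured in both. Across these genes the 2 measures of relative spread had a Spearman correlation of 0.57, given as a description since genes are not independent replicates and both tables share the method.

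The widest spread was that of Spp1, the secreted phosphoprotein osteopontin, whose relative spread was 2.71 and which is a transcript of the granulosa cells described further on. Next came Slc39a8, a zinc transporter, with a median CV of 1.27, and Ighg2b, an immunoglobulin constant-region gene, with 1.05. Both are taken up with the genes that were on or off. The floor of 20 CPM applied to the mean level and did not have to hold in each group. Outside the 6-month knockout groups the Spp1 group medians were at most 1.23 CPM, and the Slc39a8 median over knockout oocytes was 0. The CVs of these genes in such groups rest on few reads. The remaining names among the 12 widest were genes that every group expressed. Ybx1 encodes a protein that packs messenger RNA. It had a CV of 0.518 to 0.864 in the 10 groups, and ranged in 6-month knockout resveratrol oocytes from 111 to 1507 CPM around a median of 449, and in young wild-type oocytes from 36.1 to 207 CPM around 94.2. Its C57BL6 oocytes spanned 321 to 1529 CPM with a CV of 0.300.

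Gli3, a transcription factor of hedgehog signalling, was the variable gene with the least difference between groups. Its CV was 0.584 to 0.939, and only 1.95% of its variance lay between groups. Young wild-type oocytes ran from 0.239 to 198 CPM around a median of 61.7, and 10-month knockout controls from 0 to 159 CPM around 59.7. Every group thus held oocytes that differed in Gli3 by several fold, and the ranges of all 10 groups overlapped. In C57BL6 oocytes Gli3 ran from 0 to 111 CPM with a CV of 1.16.

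Ust, a sulfotransferase that acts on dermatan and chondroitin chains, had a median CV of 0.689. It ranged from 5.11 to 254 CPM in young knockout oocytes and from 36.4 to 533 CPM in 10-month knockout resveratrol oocytes, and in C57BL6 oocytes from 9.68 to 278 CPM (CV 0.570). E2f5, a repressive member of the E2F family, varied at a high level, with a median CV of 0.505. In 6-month knockout resveratrol oocytes it ran from 328 to 2599 CPM around 727. Zfand5, a stress-induced proteasome activator (median CV 0.565), Lamp1, a membrane protein of lysosomes (0.564), Fbxo28, an F-box subunit of a ubiquitin ligase (0.542), Suv39h2, a histone H3 lysine methyltransferase (0.539), and Rnf122, a RING-finger ubiquitin ligase (0.447), complete the 12. Group means differed as well in several of these, with 55.5% of the variance between groups for Zfand5 and 55.1% for Lamp1. Lamp1 medians were 21.9 CPM in 6-month wild-type resveratrol oocytes (16.4 to 58.0) and 331 CPM in 10-month knockout controls (39.7 to 615).

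The genes most alike between oocytes are given next. Srpk2, a kinase of splicing factors, had the lowest relative spread, −1.02, with a CV of 0.0533 to 0.122. Its lowest, median and highest values were 394, 453 and 505 CPM in young wild-type oocytes and 433, 519 and 671 CPM in 6-month knockout resveratrol oocytes, so that the extremes of a group stayed within 1 doubling. Sf3b1, the splicing factor that contacts the branch point, had a median CV of 0.0982 and ran from 522 to 969 CPM over all oocytes. The other 10 were Nek1, a kinase of cilia and DNA repair (median CV 0.122), Rfc1, a subunit of the clamp loader (0.105), Tcp1, a subunit of the cytosolic chaperonin (0.113), Naa35, an N-terminal acetyltransferase subunit (0.109), Tax1bp1, an autophagy receptor (0.112), Smc6, a subunit of a DNA repair complex (0.112), Camkmt, a calmodulin methyltransferase (0.132), G3bp2, a protein of stress granules (0.119), Ccar1, a regulator of cell division and apoptosis (0.107), and Rbm3, a cold-induced RNA-binding protein (0.162). In C57BL6 oocytes 11 of the 12 had a relative spread below 0, the exception being Nek1 at 0.33, and all 10 of the variable names measured there were above 0. Spp1 and Slc39a8, the widest of the variable names, were under the level floor there, at 0 to 5.03 and 0 to 0.234 CPM.

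**Figure D2:**
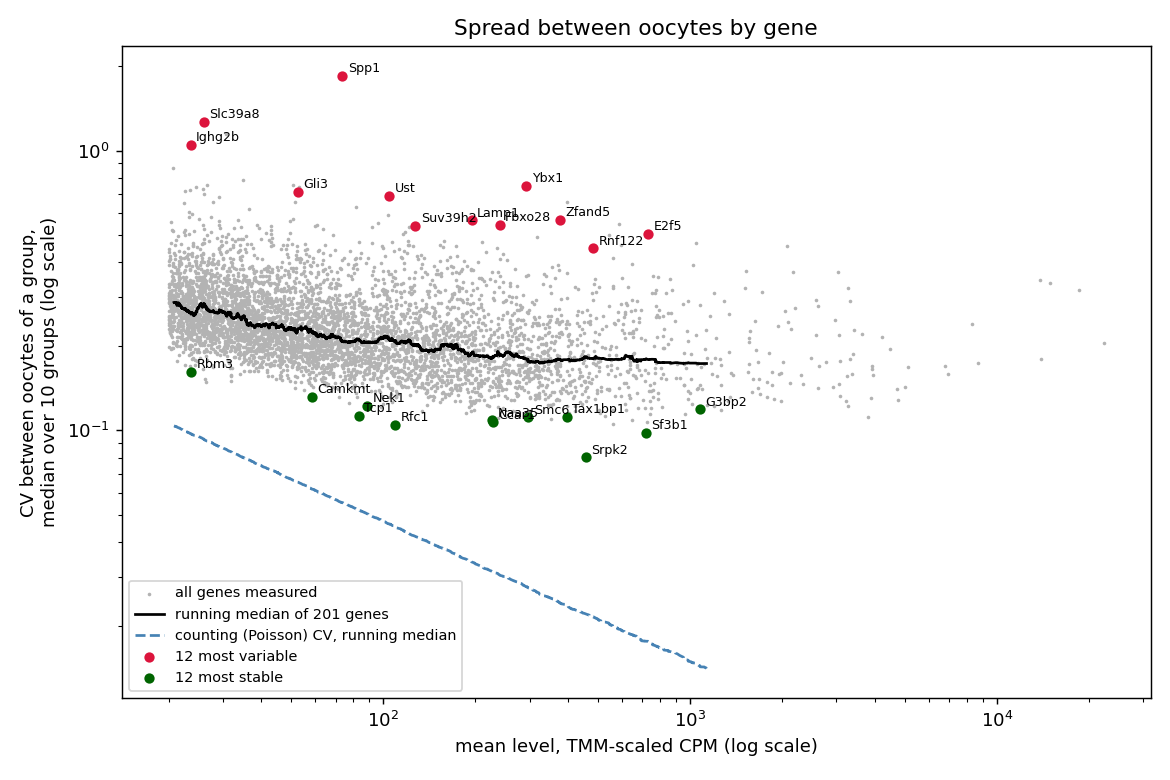
Spread by gene, with the mean level in TMM-scaled CPM on the horizontal axis and the CV between oocytes of a group (median over 10 groups) on the vertical axis, both logarithmic. Each grey point is 1 of 5228 genes, the black line is the running median over neighbouring genes, the dashed line the CV from counting alone, and named points are the 12 most variable (red) and 12 most stable (green) genes. Almost all genes lie above the dashed line, by a factor of 3.79 at the median.

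Gene lists differed in how far their members varied. The lists and their members were chosen with earlier results of these data known, and are described by counts and medians. Of all genes measured, 48.5% had a relative spread above 0. The subcortical maternal complex, a protein lattice under the egg membrane needed for the first cleavages, had the highest median relative spread of the lists with 5 or more measured members, 0.59, with 11 of 12 members above 0 and 4 above 0 in all 10 groups (33.3%, against 8.59% of all genes measured). Tle6 had the widest spread, 1.04, with 97.0 to 862 CPM in 6-month knockout controls, and Padi6 (0.90), Nlrp5 (0.74) and Nlrp14 (0.43) were also above 0 in every group. Nlrp9b had the lowest, −0.07. Without the oocyte that stood apart, and with an interquartile measure in place of the CV, the medians for this complex were 0.59 and 0.35.

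Of all genes measured, 48.5% had a relative spread above 0 and 8.59% had it in every group. Proteins of the egg coat and secreted factors had a median relative spread of 0.46, with 8 of 9 members above 0 and 2 of 9 above 0 in every group. Those were Zp3 (0.71) and Astl (1.05), the protease of the cortical granules that hardens the coat after fertilization. Astl ran from 376.7 to 1618 CPM in young wild-type and from 198 to 751 CPM in 10-month knockout resveratrol oocytes. Oosp1 stood at −0.04. The families expressed mainly in oocytes had a median of 0.39, with 26 of 32 members above 0 and 10 of 32 (31.2%) above 0 in every group. With the interquartile measure the median of these families was 0.13. The 10 were Obox1, Obox2, Obox3, Obox5 and Obox7, of the oocyte homeobox family, Oog1, and the F-box genes Fbxw14, Fbxw16, Fbxw19 and Fbxw28. Obox3 varied most (1.06; 1.56 to 268 CPM in 6-month knockout controls) and Lhx8, a homeobox regulator of early follicles, least (−0.27). The Obox, Oog, Tcl1b, Oas1 and Fbxw members have close paralogs, so the authors' counting could split reads between them and their single values are uncertain; sharing of reads was not measured.

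The DNA methylation list had a median of 0.44 over 6 measured genes, none of them above 0 in all groups. Dnmt3a, which writes methylation, had the widest spread (0.68). Tet3, the dioxygenase that oxidises methylcytosine in the zygote, was among the evenly loaded transcripts at −0.53, with medians of 583 to 781 CPM in the 10 groups and a CV of 0.0840 to 0.412. The CV of 0.412 belonged to 10-month wild-type controls, in which Tet3 ran from 437 to 1601 CPM. Tet1 was low throughout, with group medians of 1.15 to 2.95 CPM.

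Kinases and inhibitors of meiotic maturation and metaphase arrest stood near or under the spread of their level, with a median of −0.08 (−0.17 with the interquartile measure), 9 of 25 members above 0, and 3 of 25 (12%) on each side in all groups (8.59% and 6.27% of all genes measured). Aurka, the spindle-pole kinase (−0.62; 142 to 297 CPM over all oocytes), Wee2, the oocyte inhibitor of the cyclin-dependent kinase (−0.60), and Cdca8, a subunit of the chromosomal passenger complex (−0.42), were below 0 in every group. Among those above 0 in every group were Mapk3, a kinase under Mos, at 1.44 and the cyclin Ccnb3 at 0.90. Mapk3 ran from 10.2 to 359 CPM in 6-month knockout controls and from 53.0 to 236 CPM in 6-month wild-type controls. Mos itself stood at −0.07 with a median CV of 0.169. Proteasome subunits were the other list under 0, with a median of −0.17 and 4 of 18 members above 0 (48.5% of all genes measured lay above 0). Psmb6, Psmd7 and Psmd8 were below 0 in all groups (16.7%, against 6.27% of all genes measured), and Psma5 and Psmb2 above (11.1%, against 8.59%).

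The other lists lay between these, several with a share of members above 0 near the 48.5% of all genes measured. Maternal effect factors had a median of 0.21 (12 of 20 above 0), with Zar1, which holds stored messenger RNA, at 0.76 and Tet3 lowest. Regulators of stored RNA had 0.09 (11 of 19), the lowest being Papd7, a poly(A) polymerase, at −0.51. Heat shock genes had 0.15 (10 of 15), with Hspb1 at 0.95 and Hsp90aa1 at −0.48. Respiratory chain genes had 0.07 (10 of 19), from Cox6a1 at 0.89 to Uqcrc2 at −0.67, and antioxidant genes 0.06 (8 of 12), from Gclm, a subunit of the enzyme that starts glutathione synthesis, at 1.43 to Txn2 at −0.40. Of the 53 cytosolic ribosomal protein genes 14 reached 20 CPM, with a median of 0.02, from Rps2 at 0.87 to Rpl15 at −0.69. Interferon and antigen presentation genes were represented by B2m alone (0.57), and the genes of embryonic genome activation by Tcstv1 alone (0.84).

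Members of some lists rose and fell together from oocyte to oocyte. Around the group means, the mean pairwise Pearson correlation over all oocytes was 0.33 for egg coat and secreted factors, 0.28 for oocyte-specific families, 0.23 for ribosomal proteins, 0.21 for the proteasome and 0.18 for the respiratory chain, against 0.01 over all 5228 genes. It was 0.12 for the subcortical complex, 0.07 for metaphase arrest and 0.01 for regulators of stored RNA. Gdf9 followed Mos with 0.70 (Spearman 0.47), Bmp15 with 0.48 (0.49) and Zp3 with 0.34 (0.27). These are descriptions of points that share library, depth and amplification. They include the young knockout oocyte that stood apart, described further on. Its log2 difference from the median of the others in its group was −6.50 for Mos, −3.98 for Gdf9 and −3.21 for Zp3. The part of this oocyte in the correlations was not tested.

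The groups themselves differed in spread. The median CV over genes was lowest in young wild-type oocytes (0.190) and 6-month wild-type resveratrol oocytes (0.194), then 0.212 in 6-month wild-type controls and in 10-month wild-type resveratrol oocytes, 0.226 in 10-month knockout controls, 0.231 in 10-month knockout resveratrol, 0.237 in 6-month knockout resveratrol and 0.245 in 6-month knockout controls. It was highest in young knockout oocytes (0.267) and 10-month wild-type controls (0.296). With 1 value per group, the 5 knockout groups averaged 0.241 ± 0.0163 (SD) and the 5 wild-type groups 0.221 ± 0.0431, a difference of 0.0203 (exact permutation test over groups, two-sided p = 0.365, adjusted over 3 comparisons p = 0.514). The 4 groups at 10 months averaged 0.241 ± 0.0373 and the 4 at 6 months 0.222 ± 0.0231 (p = 0.514 by the same exact test, adjusted p = 0.514). The 4 resveratrol groups averaged 0.218 ± 0.0194 and their 4 controls 0.245 ± 0.0367 (exact p = 0.257, adjusted p = 0.514). The smallest p these tests allow is 0.00794 for genotype and 0.0286 for age and for treatment. None of the 3 differences exceeded the spread between groups. The first difference depended on 1 group: without the 10-month wild-type controls the difference between genotypes was 0.0390 (exact permutation p = 0.0159, unadjusted). That group had the highest median CV of all and was left out after the values were seen, so this p is a description only. Once it was left out, every remaining wild-type group (0.190 to 0.212) lay below every knockout group (0.226 to 0.267). The p of 0.0159 is therefore the smallest that this split allows. The smallest p of 0.00794 refers to the test with all groups.

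Part of the spread of 10-month wild-type controls lay between its sets. Around the means of the sets its median CV was 0.239 in place of 0.296, while in young wild-type oocytes it was 0.170 in place of 0.190 and in 6-month wild-type controls 0.207 in place of 0.212. Within the group, pairs of oocytes of the same set had a median Spearman correlation of 0.934 over the 5228 genes and pairs from different sets 0.828. Same-set pairs were the more alike in all 10 groups, although the gap was smaller elsewhere, for example 0.939 against 0.930 in 6-month wild-type controls and 0.930 against 0.880 in young knockout oocytes. Split by group and set, the median share of variance over genes was 19.5% between groups, 19.2% between sets of a group and 57.9% between oocytes of a set. Each median was taken separately, so the shares need not add up to the whole. Without the sets, the between-group share had a median of 28.5%, with quartiles of 19.5% and 38.5%.

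**Figure D3:**
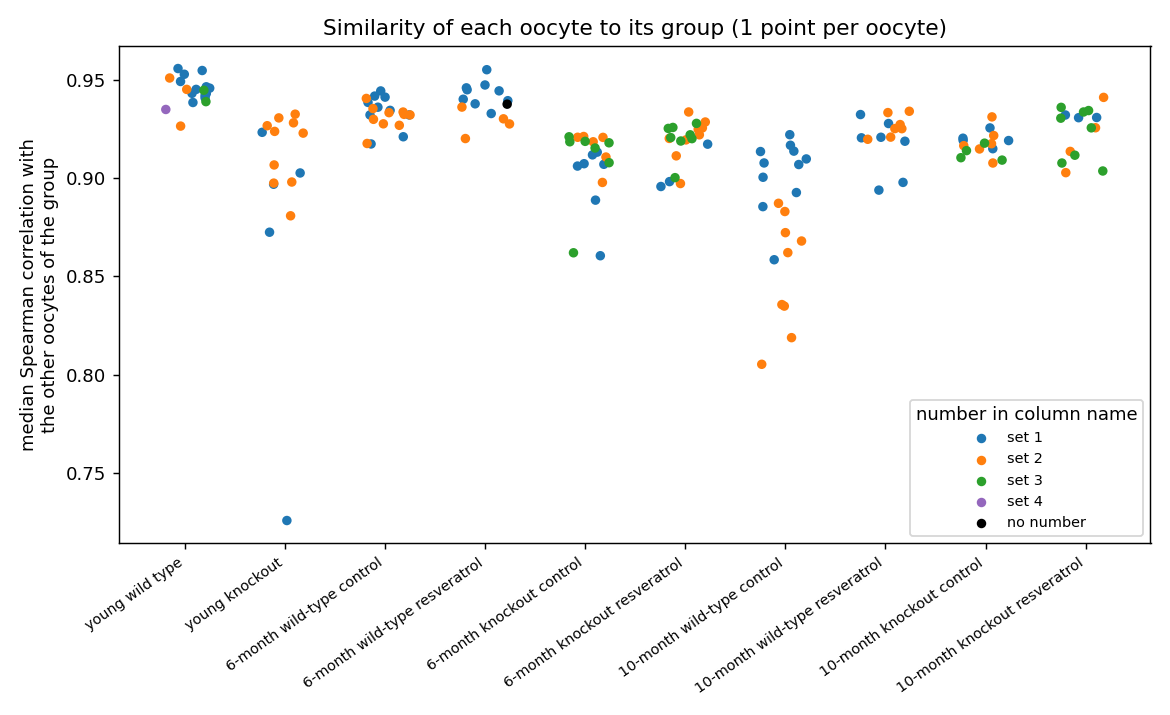
Similarity of each oocyte to its group, as its median Spearman correlation with the other oocytes of the group over 5228 genes, with 1 point per oocyte coloured by the number in its column name. The lowest point, 0.726, is a young knockout oocyte, and the oocytes of set 2 of the 10-month wild-type controls sit under most of those of set 1. Set 2 is the smaller set of that group, so most pairs of its oocytes are with the other set.

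Between set 1 (11 oocytes) and set 2 (9 oocytes) of the 10-month wild-type controls, 100 genes were higher in set 1 (1.91% of those measured) and 203 lower (3.88%), counting genes whose ranges did not overlap and whose medians differed at least 2-fold. Together that is 5.80% of genes, against 0.0574% to 2.12% for the other pairs of sets of 3 or more oocytes within groups. Genes higher in set 1 included Mmadhc, which handles vitamin B12 (565, 769 and 936 CPM as lowest, median and highest, against 152, 198 and 239), and Ddx4, the germ cell helicase (39.3, 50.7 and 60.6 against 10.2, 11.7 and 16.6). Genes lower in set 1 included Tex15, a factor of germ cell genome defence (0, 0.723 and 2.42 CPM against 10.7, 30.8 and 80.7), Slc25a17, a peroxisomal carrier (2.46, 4.82 and 5.74 against 75.05, 91.3 and 112), and Ugcg, the enzyme that makes glucosylceramide (2.32, 6.503 and 14.2 against 54.2, 74.9 and 274). These 5 genes were chosen after their values were seen, from the largest differences.

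Few list members were among the genes that separated the sets. Of the subcortical complex, Tle6 was higher in set 1 (310, 500.3 and 794 CPM against 109, 164 and 196) and Nlrp4f lower (322, 614 and 839 against 1840, 1926 and 3230), 1 of 12 each. Of metaphase arrest, Mapk3 was higher and Ccnb3 lower, of the proteasome Psma5 was higher and of the antioxidant genes Gpx3. The medians nevertheless leaned to one side in some lists. Of the proteasome genes 17 of 18 had a higher median in set 1, by 0.44 in log2 at the list's median, and of metaphase arrest 21 of 25, by 0.28, against 2820 of all 5228 genes and 0.07. Genes higher in set 1 had a median exon length of 3.42 kb, those lower 7.46 kb and all genes 5.06 kb, over the 89, 173 and 4597 genes with a length. The part of transcript length in the result was not tested.

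The oocyte that stood furthest apart was the fifth of set 1 of the young knockout group, with a median correlation of 0.726 against 0.907 for the median of its group. Measured against the median of the other 14, 1051 genes were at least 2-fold lower (20.1% of those measured) and 441 at least 2-fold higher (8.44%). Mos held 9.79 CPM where the other 14 ran from 778 to 1239, Gdf9 462 where they ran from 3305 to 9510, Zp3 17.3 where they ran from 115 to 309, and Plat, the tissue plasminogen activator that oocytes translate during maturation, 45.5 where they ran from 1299 to 4666. Dppa3 was higher, at 3099 CPM against 698 to 1378. Plat was chosen after its values were seen. Of egg coat and secreted factors 6 of 9 were 2-fold lower and 0 higher, and of the oocyte-specific families 7 of 32 were higher and 2 lower. Of the subcortical complex 3 of 12 were lower and 1 higher. This oocyte was taken as labelled, and without it the median CV of its group was 0.233 in place of 0.267. The 6-month knockout controls (0.245) and 6-month knockout resveratrol oocytes (0.237) then both lay above the young knockout group.

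The other oocytes differed from the median of their group by at least 2-fold in 15 to 947 genes, and the median over all oocytes was 100. The oocytes with a median correlation under 0.85 were 5 in number, this one and 4 of set 2 of the 10-month wild-type controls. In that group set 2 (9 oocytes) was smaller than set 1 (11 oocytes), so most pairs of a set 2 oocyte were with the other set. The low values therefore do not show that set 2 was the atypical set.

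Some genes were on in a part of a group and off in the rest. A gene was counted as on-off in a group when at least 3 oocytes had 10 CPM or more, at least 3 had less than 0.5 CPM, and fewer than 20% of its oocytes lay between. A value under 0.5 CPM is at most a few reads at these depths, so off does not mean absence. Of 53619 genes 38 met this in at least 1 group and 13 in 2 or more, 57 combinations of gene and group in all. The count of 38 depended on the limits, with 16 genes when on meant 20 CPM and 91 when it meant 5 CPM. The counts were 14 in 6-month knockout resveratrol, 11 in 10-month knockout control, 10 in 6-month knockout control, 6 each in young knockout and 6-month wild-type resveratrol, 4 each in young wild type and 10-month wild-type control, 1 each in the 2 remaining resveratrol groups at 10 months, and 0 in 6-month wild-type controls.

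Kcnk18, a potassium channel gene on chromosome 19 at 59219214 to 59237374 (GRCm38, plus strand), met the rule in 4 groups, all knockout, where its states often followed the sets. In young knockout oocytes 5 of 5 of set 1 were on (25.6 to 46.7 CPM) and 0 of 10 of set 2, which ran from 0 to 0.748 CPM. In 10-month knockout controls 0 of 5 were on in set 1 (0 to 0.225 CPM), 6 of 6 in set 2 (25.96 to 32.4) and 4 of 4 in set 3 (20.3 to 32.9). In the 6-month knockout groups the sets were mixed, with 3 of 7 on and 3 of 7 off in set 3 of the controls. Whole groups were also uniform: all 20 of the 6-month wild-type controls lay at 44.4 to 77.2 CPM, and all 20 of the 10-month wild-type controls at 0 to 0.528 CPM. In C57BL6 oocytes 27 of 27 were on, at 29.7 to 101 CPM.

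The same division by set was seen for other genes. Gsto2, a glutathione transferase of the omega class, was on in 5 of 5 oocytes of set 1 of the 10-month knockout controls (10.2 to 23.1 CPM) and in 0 of 10 of sets 2 and 3 (0 to 1.61 CPM). Cyp39a1, a sterol hydroxylase, was on in 5 of 5 and 4 of 4 oocytes of sets 1 and 3 and in 0 of 6 of set 2 of that group, and in 0 of 4 of set 2 of the 10-month knockout resveratrol oocytes. Galnt7, an enzyme that starts O-glycosylation, was on in 10 of 10 oocytes of set 2 and in 0 of 5 of set 1 of the young knockout group. AC133161.1, a clone-named gene, was on in 5 of 5 oocytes of set 1 and in 0 of 10 of set 2 of that group, and was off in 158 oocytes in all. Tox3, a chromatin protein, was on in 0 of 9 oocytes of set 1 and 4 of 4 of set 2 of the 6-month wild-type resveratrol group. Pxdn, a peroxidase of the extracellular matrix, Pramef17, of a germ-line gene family, and a clone-named gene complete the names that met the rule in the most groups, with Ighg2b, Akr1c18 and RP24-299A7.2.

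Over the 57 combinations, 27 had no set that held both on and off oocytes, and all 27 were among the 33 combinations outside the 6-month knockout groups. In each of the 24 combinations in those groups at least 1 set held both. In C57BL6 oocytes 14 of the 38 genes were on and 5 off in 26 or 27 of the 27 oocytes, and 1 had at least 3 oocytes on and 3 off.

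**Figure D4:**
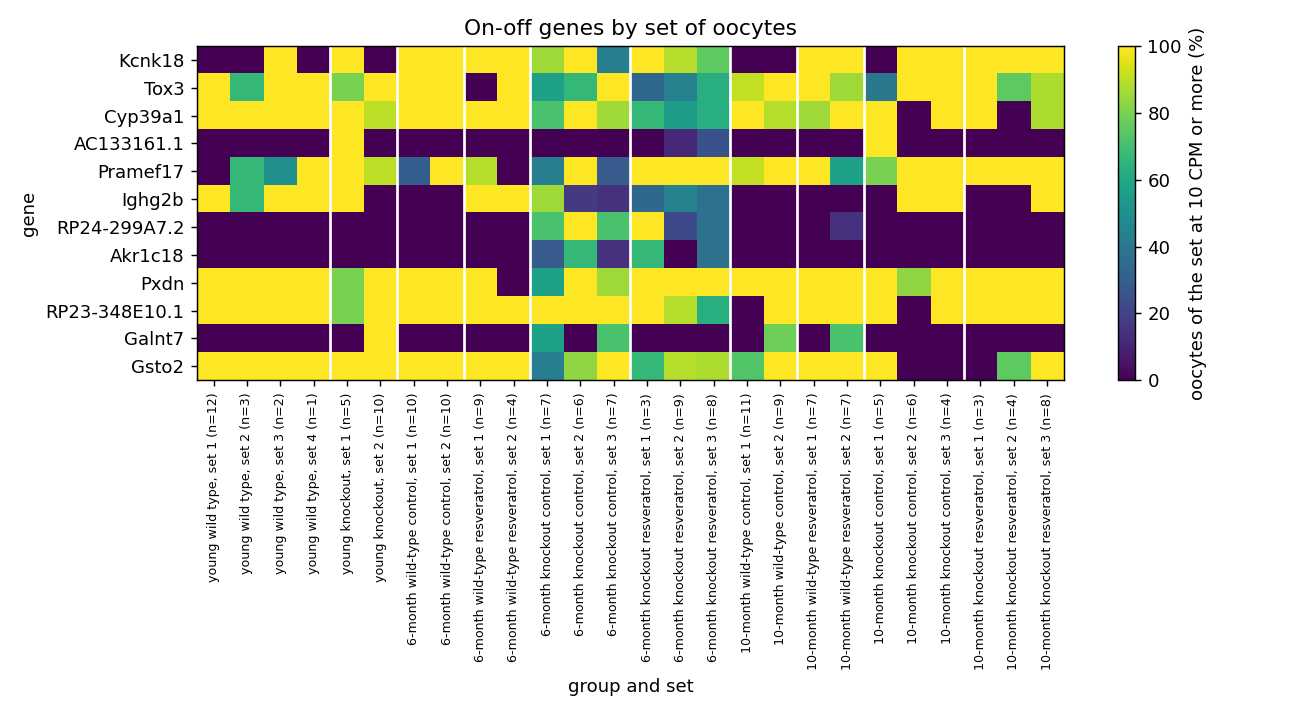
The 12 on-off genes found in the most groups (rows) in the 26 sets of oocytes (columns, white lines dividing the groups), coloured by the percentage of oocytes of the set at 10 CPM or more. Outside the 6-month knockout groups most cells are at or near 0 or 100, while within those groups many lie between.

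Slc39a8 and Manba, a lysosomal mannosidase gene, lie on chromosome 3 at 135825279 to 135888572 and 135485611 to 135571404 (GRCm38), 2.28 and 1.94 Mb from the end of Tet2. Manba had 86.6% of its variance between groups. In 4 knockout groups 0 oocytes reached 10 CPM of either gene, and the highest Manba value was 3.47 CPM. In the 6-month knockout resveratrol group 11 of 20 oocytes reached 10 CPM of Slc39a8 and 12 of 20 of Manba, 11 of both, and Manba ran from 0.211 to 120 CPM. In wild type 83 of 86 oocytes reached 10 CPM of Manba and 57 of 86 of Slc39a8, the latter between 0 and 317 CPM. In C57BL6 oocytes Slc39a8 was under 0.5 CPM in 27 of 27, at 0 to 0.234 CPM, so its absence was not particular to oocytes labelled knockout. Oocytes labelled knockout in the 6-month resveratrol group were thus mixed for 2 genes near the targeted locus. Whether the oocytes differ at the locus was not tested. The largest between-group shares belonged to Arid5b, a chromatin regulator (95.3%), and Coro2b, an actin-binding coronin (92.4%). Arid5b had 2.59 CPM (0.946 to 9.11) in young wild-type and 3.67 CPM (1.22 to 6.23) in 6-month wild-type resveratrol oocytes, and medians of 153 to 289 CPM in the other 8 groups. Coro2b was at medians of 0.578 and 0.352 CPM in the same pair of groups and 53.3 to 81.2 CPM elsewhere. Alyref2, Mfap1b, Atg5, Hjurp and Tmod2 followed with 87.1%, 86.9%, 86.3%, 86.1% and 86.1%.

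Oocytes with Spp1 also held other transcripts that are abundant in the granulosa pools. Spp1 is the most granulosa-typical of the variable genes, with 46470 to 88886 CPM in the 18 granulosa pools, none of them from 6-month mice. In 6-month knockout controls it ran from 0.634 to 1277 CPM around a median of 453, in 6-month knockout resveratrol oocytes from 0.380 to 669 around 5.22, and in the other 8 groups medians were 0 to 1.23 CPM. It reached 10 CPM in 17 of 20 and 9 of 20 oocytes of those groups and in 6 of the other 131. A further 45 genes were chosen after the values were seen, as those at a median of 500 CPM or more in the pools and under 1 CPM in the oocytes. Their sum was 50014 to 78862 CPM in the pools. Its median was 707 CPM in 6-month knockout controls (11.1 to 1834) and 125 CPM in 6-month knockout resveratrol oocytes (8.18 to 637), against 9.23 to 14.6 CPM in the other groups.

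All 32 oocytes with 10 CPM or more of Spp1 also had more than 50 CPM of the other granulosa transcripts, against 4 of the other 139. Leukocyte genes moved with Spp1 in part: of the 6 oocytes with 10 CPM or more of Spp1 outside the 6-month knockout groups, 4 were among the 7 with macrophage genes described next, and the pools themselves held 27.6 to 7799 CPM of blood and leukocyte markers. Their part in the result was not tested. Of the 38 on-off genes 7 had a granulosa median of 100 CPM or more, among them Akr1c18, a progesterone-metabolising enzyme (2143 CPM in the pools, on in 12 oocytes), and RP24-299A7.2 (7414 CPM). Without both 6-month knockout groups 27 of the 38 on-off genes remained. The fixed markers of cumulus and granulosa cells were at a median of 0 CPM in 21 of 26 genes. Serpine2 and Cyp19a1 were the exceptions above 10 CPM, and the other 24 summed to 4.35 to 405 CPM with a median of 12.9. In the pools the whole list summed to 9776 to 16788 CPM. The part of attached cells or free RNA in the spread of the 6-month knockout groups was not tested.

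**Figure D5:**
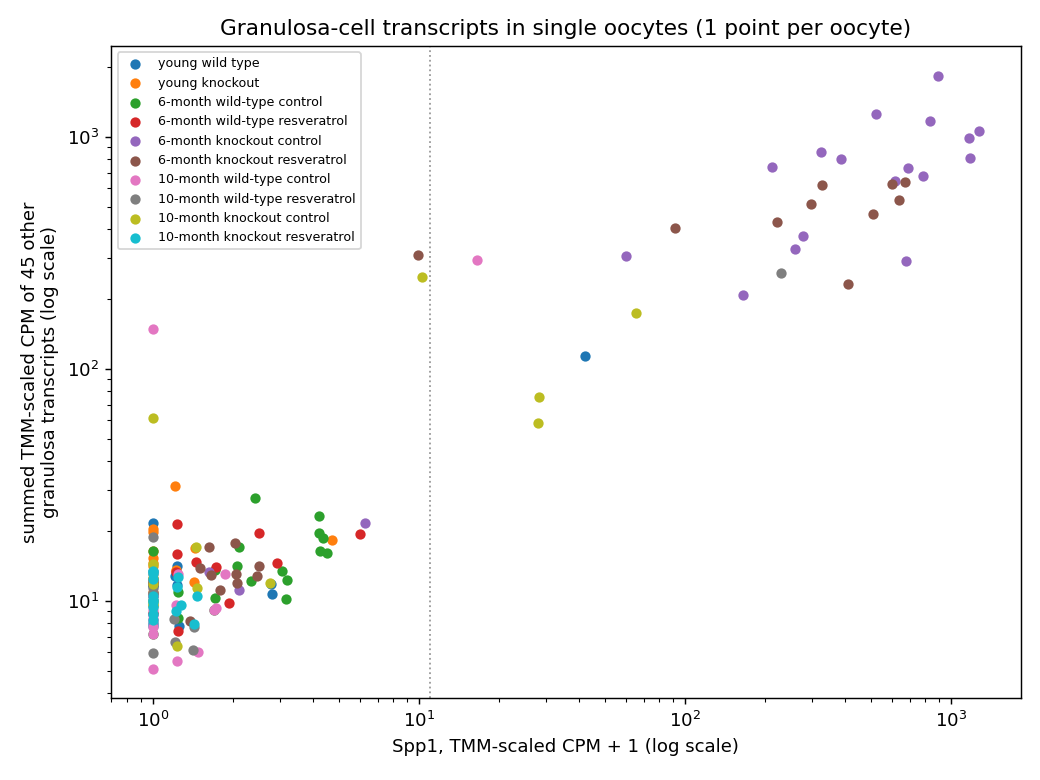
Granulosa transcripts in single oocytes, with Spp1 (TMM-scaled CPM plus 1) on the horizontal and the summed CPM of 45 other granulosa transcripts on the vertical axis, both logarithmic, 1 point per oocyte coloured by group, and a dotted line at 10 CPM of Spp1. The points right of the line are mostly 6-month knockout oocytes (26 of 32), and all of them lie above 50 CPM on the vertical axis.

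Leukocyte genes were high together in 7 oocytes. Of these 7, 6 also had 10 CPM or more of Spp1, so the signal was not separate from that of Spp1. Lyz2, Ccl9, Fcer1g and Tmsb4x, genes expressed in macrophages and other leukocytes and chosen after their values were seen, met the on-off rule in 10-month knockout controls, and all 4 were at 10 CPM or more in 3 oocytes of that group and in 4 oocytes of other groups. In the granulosa pools Tmsb4x had a median of 702 CPM, Lyz2 54.0, Ccl9 10.4 and Fcer1g 7.26 CPM. Lyz2 is itself one of the fixed blood and leukocyte markers. Without it the list summed to 61.9 to 191 CPM in the 7 and to 9.58 to 64.5 CPM in the other 164, ranges that overlap. Of the red cell markers Hbb-bs and Hba-a1 were at 0 in 6 of the 7 oocytes, while Alas2 had reads in 3. The macrophage genes Cd68, C1qa, C1qb, Csf1r, Tyrobp and Laptm5 had reads in all 7, and Cd74, of antigen presentation, was at 0 in 1. Ptprc, a leukocyte marker of the same list, was low in the 7, at 0.218 to 3.90 CPM. How many of the other 164 oocytes had reads of these genes was not counted. For oviduct and stroma, 10 of 13 markers had a median of 0, and Pecam1, at 98.5 CPM on average, was the exception above 10 CPM. Their part in the spread was not tested.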

How the data were processed

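Whole-number read counts per gene were deposited by the authors in 2 tables, one of mixed-background samples and one of C57BL6 oocytes. HISAT2 2.1.0, featureCounts, DESeq2 and the build mm10 are named in the submitters' processing notes, with no word on strand, so reads of overlapping and antisense genes cannot be told apart. Counts were divided by library totals scaled with TMM factors (edgeR 4.0.16, R 4.3.3) to give CPM, and further steps used Python 3.11.15 with pandas 2.3.3 and scipy 1.17.1. Libraries held 3386039 to 8775154 counts. Without molecular identifiers, floors cover counting error only. Spread was computed in 10 groups for genes at a mean of 20 CPM or more, and the procedure was tested on simulated data. Permutation tests used 1 value per group, so p-values measure the spread between groups. Members and lists were chosen with earlier results of these data known. Named genes were the markers and Tet genes, the 20 most abundant, the 12 most and 12 least variable with 1 sign in every group, 12 on-off genes, the extremes of each list and the 8 largest between-group shares; others are said to be chosen later. Alternatives changed scaling, the level floor, the spread measure, depth and on-off limits. Some genes that these rules would name are not reported here.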

Additional observations from a re-analysis of the deposited data

How the results depend on the processing

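Of 116 alternative values, 107 were classed as unchanged, by direction, side of the threshold or a shift within the spread, and 0 reversed. For counts this class was wide. It took in 27 against 38 on-off genes, and 12032 genes detected with at least 5 reads against 16704 with at least 1. Group tests counted as unchanged while p stayed on the same side of 0.05. The count of 38 on-off genes was 91 with on at 5 CPM, 16 with on at 20 CPM, 17 with off under 0.2 CPM and 61 with off under 1 CPM. With the interquartile measure the median relative spread was 0.35 for the subcortical complex, −0.17 for metaphase arrest and 0.13 for oocyte-specific families; the cause was not tested. Genes detected at thinned depth were 10117 with at least 10 reads and 16704 with at least 1. The difference in median CV between knockout and wild type was 0.0390 (exact permutation p = 0.0159) without the 10-month wild-type controls, an alternative chosen after seeing the data, and 0.0123 to 0.0310 under its other alternatives. That p is the smallest the test allows without those controls. With whole groups paired within strata, by flipping signs, the exact p was 0.438 for genotype, 0.75 for age and 0.25 for treatment. No paired analysis was possible for single oocytes because the numbers in the column names are not the replicate numbers of the labels, and no label ties oocytes of different groups to each other. The planned restriction to oocytes numbered 1 to 14 was not run for that reason, and the first 14 columns of each group were used, chosen after seeing the data. Depth limits statements on genes near 3 counts per library, such as Tet2.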
